A study of Mus musculus with 2 samples.

Results

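The Kv1 potassium channels and their partners are described here through 8 genes of the mouse cortex. Kcna1, Kcna2, Kcna3, Kcna4 and Kcna6 encode pore-forming alpha subunits, Kcnab1 and Kcnab2 encode cytoplasmic beta subunits, and Lgi1 encodes a secreted protein found in Kv1 complexes. They were taken from a list of gene symbols by family and partnership, a list drawn up with earlier results of these data known, and make up 8 of the 55536 annotated genes in the deposited tables. Ribosome-reduced total RNA of the left cerebral cortex was sequenced from 2 adult female mice, 8 to 10 months old, with 1 library for each animal and 300 ng of RNA in each library. Both mice were B6CASTF1/J, the F1 hybrid of C57BL/6J and CAST/EiJ, and neither was treated. Replicate 2 is animal 5 and replicate 1 is animal 1. The labels give both animals the same donor entry, so that they are separate mice rests on the animal numbers. There is 1 group and no contrast, so the values below describe these 2 libraries and carry no p-values.

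Kv1 channels are voltage-gated potassium channels that open near the resting potential of a neuron and hold back repeated firing. Alpha subunits assemble in fours, often of mixed type, and beta subunits attach to their cytoplasmic face. In the cortex the channels sit at axon initial segments, at the juxtaparanodes beside nodes of Ranvier, and at axon terminals. Inactivation is fast where a channel contains the Kcna4 product or the long form of the Kcnab1 product, since both carry an N-terminal peptide that plugs the pore. LGI1 binds the receptors ADAM22 and ADAM23, and mutations of KCNA1, KCNA2 and LGI1 in people cause ataxia or epilepsy.

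The 5 alpha subunit genes are shown by the coding stretch around the selectivity filter, the part of the pore that passes potassium, because this stretch shows how alike the genes are and how reads can still be told apart. Capitals mark the 18 bases of the filter codons. The windows were read from GENCODE M21 transcripts and lie on mm10 at chr6:126642198-126642269 (minus strand) for Kcna1, chr3:107105197-107105268 (plus) for Kcna2, chr3:107037584-107037655 (plus) for Kcna3, chr2:107296468-107296539 (plus) for Kcna4 and chr6:126738617-126738688 (minus) for Kcna6.
Kcna1: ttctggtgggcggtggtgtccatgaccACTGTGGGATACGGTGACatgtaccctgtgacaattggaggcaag
Kcna2: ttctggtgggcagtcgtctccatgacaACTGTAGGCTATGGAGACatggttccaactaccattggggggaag
Kcna3: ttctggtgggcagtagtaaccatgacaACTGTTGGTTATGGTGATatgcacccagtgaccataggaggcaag
Kcna4: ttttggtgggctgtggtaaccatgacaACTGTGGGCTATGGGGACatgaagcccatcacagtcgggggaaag
Kcna6: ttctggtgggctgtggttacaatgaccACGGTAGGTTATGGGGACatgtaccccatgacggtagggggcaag

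The filter codons specify the same amino acids in all 10 pairs of genes, yet differ at 2 to 5 of the 18 bases. Over the whole coding region the pairs were 71.5% to 77.6% identical in aligned bases, and the longest identical run was 31 bases, between Kcna1 and Kcna6. No stretch of 100 bases was shared between any of these 5 genes, or Kcnab1, and another annotated gene. In Lgi1, 8.83% of such stretches also occur in the processed pseudogene Gm3888, which was assigned 12.3 counts in replicate 2 and 16.4 in replicate 1. In Kcnab2, 0.444% of them occur in Gm16334. The coding regions of Kcnab2 and Kcnab1 were 76.9% identical, with a longest shared run of 26 bases.

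The alpha subunit genes lie mostly in clusters. On chromosome 6, minus strand, Kcna1 (ENSMUSG00000047976.4, chr6:126640397-126646384) stands 61.9 kb from Kcna6 (ENSMUSG00000038077.7, chr6:126708329-126740674) and 105 kb from Kcna5. On chromosome 3, plus strand, Kcna3 (ENSMUSG00000047959.4, chr3:107036169-107038070) stands 63.1 kb from Kcna2 (ENSMUSG00000040724.5, chr3:107101146-107115005), with Kcna10 a further 68.0 kb on. Kcna4 (ENSMUSG00000042604.5, chr2:107290639-107298502) is alone. The partners are Kcnab1 (ENSMUSG00000027827.16, chr3:65109384-65378223), Kcnab2 (ENSMUSG00000028931.11, chr4:152390742-152477871) and Lgi1 (ENSMUSG00000067242.11, chr19:38264536-38312214). The coding region of each alpha gene lies in 1 exon, whereas Kcnab1-201 has 14 coding exons.

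Levels are in TPM, a length-corrected share of all transcripts, from the deposited gene table (the first table). A deposited transcript table made in another way (the second table) was summed per gene and is set beside it. Kcna1 and Kcna2, whose products form the main mixed Kv1 channel of axons, were the most abundant alpha subunit RNAs. Kcna2 had 75.5 TPM in replicate 2 and 71.3 in replicate 1, a mean of 73.4 ± 2.94 TPM (SD, n = 2). Kcna1 had 69.9 TPM in replicate 2 and 63.8 in replicate 1, a mean of 66.8 ± 4.34 TPM. Both animals placed Kcna2 slightly above Kcna1 in the first table, by a ratio of 1.08 in replicate 2 and 1.12 in replicate 1. In the second table both animals placed it below, at 0.877 and 0.924, so the order of this pair was not settled.

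The other alpha subunits were lower. Kcna6, which encodes Kv1.6, had 38.7 TPM in replicate 2 and 37.4 in replicate 1 (38.1 ± 0.940 TPM). Kcna4, which encodes the fast-inactivating Kv1.4, had 22.4 TPM in replicate 2 and 24.5 in replicate 1 (23.4 ± 1.49 TPM). Kcna3, which encodes the Kv1.3 channel also known from lymphocytes and microglia, had 13.0 TPM in replicate 2 and 15.7 in replicate 1. Kcna6 was above Kcna4 in both animals and both tables. Kcna4 was above Kcna3 in the first table, but in the second the ranges overlapped, with 15.2 TPM in replicate 2 and 13.0 TPM in replicate 1 for Kcna4 and 11.8 and 13.9 TPM for Kcna3.

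Kcnab2 was the most abundant of the 8 in both animals and both tables. It encodes Kvβ2, which helps to carry Kv1 channels to the axon. It had 198 TPM in replicate 2 and 173 in replicate 1, a mean of 185 ± 17.3 TPM. That level was above 97.1% of the 12947 nuclear protein-coding genes that reached 1 TPM in both libraries. Kcnab1, which encodes Kvβ1, had 76.4 TPM in replicate 2 and 68.8 in replicate 1 (72.6 ± 5.35 TPM). Kcnab2 exceeded Kcnab1 by a factor of 2.59 in replicate 2 and 2.52 in replicate 1, or 2.38 and 2.33 in the second table. Lgi1 had 58.4 TPM in replicate 2 and 60.8 in replicate 1 (59.6 ± 1.68 TPM), below Kcna1 in each animal and each table. The ratio of Kcna1 to Lgi1 was 1.20 in replicate 2 but 1.05 in replicate 1, and 1.18 and 1.01 in the second table. In replicate 1 the levels of the pair were thus nearly equal.

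**Figure D1:**
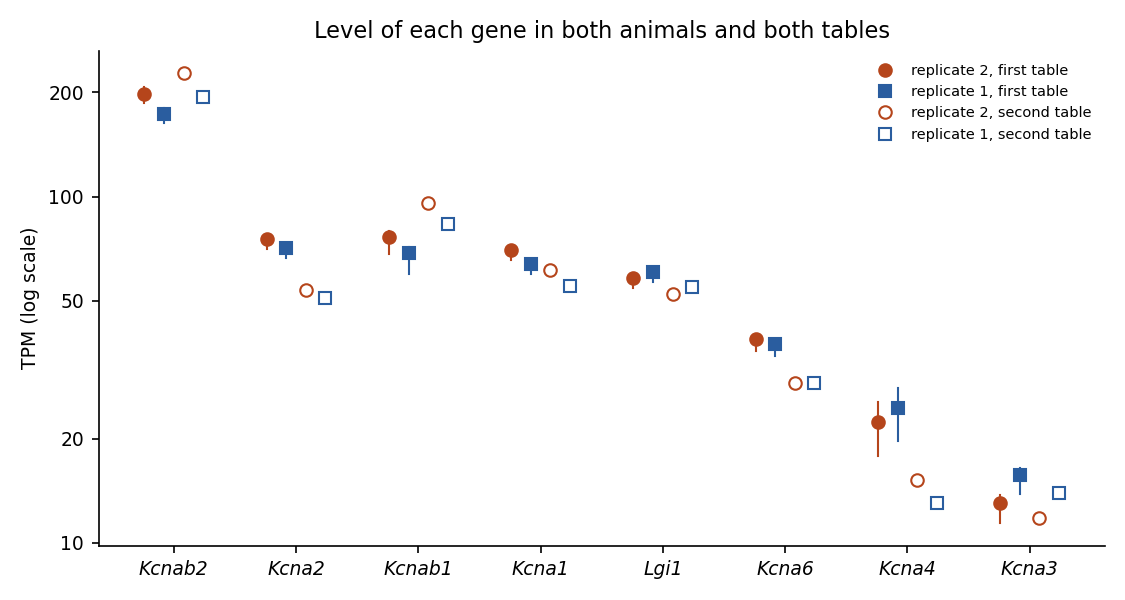
TPM of the 8 genes on a log axis, ordered by their mean in the first table, with 1 point for each animal and table and vertical lines for the deposited interval of the first table. Kcnab2 is highest throughout at 173 to 198 TPM in the first table, while Kcna2, Kcnab1 and Kcna1 lie close together and change order between the tables, and some points lie above their interval.

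All 8 genes reached 1 TPM in both animals, as did 12947 of the 21938 nuclear protein-coding genes. Of the 8 genes 1, Kcna3, was below the median of 16.5 TPM of these detected coding genes. Between the tables the ratio of mean levels, second over first, ran from 0.603 for Kcna4 to 1.23 for Kcnab1. By rank Kcna2 was in place 2 of the 8 in the first table and place 5 in the second, where its mean was 52.4 ± 2.07 TPM. The deposited point value of Kcna1 and of Kcna2 lay above the upper bound of its own interval in both libraries, by under 1 TPM. The counts behind these levels ran from 442 in replicate 2 and 513 in replicate 1 for Kcna3 to 12726 and 11616 for Kcna2. Together the 8 genes took 42225 counts in replicate 2 and 38323 in replicate 1.

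Within the family of 8 Kv1 alpha genes the summed level was 224 TPM in replicate 2 and 217 TPM in replicate 1. Kcna2 supplied 33.2 ± 0.616% of it and Kcna1 30.3 ± 1.31% (SD, n = 2), followed by Kcna6 with 17.3%, Kcna4 with 10.6% and Kcna3 with 6.51%. Kcna5 supplied 2.03%, with 4.28 TPM in replicate 2 and 4.65 TPM in replicate 1. Kcna10 had 10 counts in replicate 2 and 1 count in replicate 1. Kcna7 had 0 counts in both libraries, which allows up to 3 counts in each, or 0.159 TPM in replicate 2 and 0.165 TPM in replicate 1 for a transcript of 1 kb. In the second table Kcna1 held 34.2% and Kcna2 30.7%, followed by Kcna6 with 17.0%. There the shares of Kcna4 and Kcna3 changed order between the animals, at 8.69% for Kcna4 and 6.74% for Kcna3 in replicate 2 but 7.84% and 8.38% in replicate 1.

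Among the 3 beta subunit genes Kcnab2 supplied 62.8%, Kcnab1 24.6% and Kcnab3 12.6% of a summed level of 314 TPM in replicate 2 and 276 TPM in replicate 1. The beta sum exceeded the alpha sum in both animals, by a ratio of 1.40 in replicate 2 and 1.27 in replicate 1. In the second table the ratio was 2.04 in replicate 2 and 1.84 in replicate 1. Part of that beta sum lay in transcripts without a complete coding region. Those with one held on average 148 of 211 TPM for Kcnab2 and 44.3 of 89.4 TPM for Kcnab1 in the second table. All these ratios are of RNA levels in whole tissue, in which fewer cells of a type and less RNA per cell cannot be told apart.

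The 8 genes have 42 annotated transcripts, of which 20 reached 10% of their gene's TPM in either animal and either table. Transcript shares are more fragile than gene levels, because reads that fit several transcripts were divided by a model, so both tables are given. Kcna1 was carried mostly by Kcna1-201, with 90.7% in replicate 2 and 90.4% in replicate 1, against 85.5% and 85.1% in the second table. Kcna3 has 1 annotated transcript. Kcna2-201, 11582 bases long with an untranslated 3′ end of 9401 bases, held 72.1% in replicate 2 and 72.6% in replicate 1 (85.6% and 84.7% in the second table). The short Kcna2-202, of 2430 bases, held 26.9% in each animal in the first table and 12.3% and 14.3% in the second. Both encode the same coding region of 1497 bases, so these shares concern the transcript ends.

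For Kcna4 the direction between the animals depended on 1 short transcript. Kcna4-202 is a noncoding transcript of 370 bases, and it was assigned 22.4 counts in replicate 2 and 42.0 counts in replicate 1. Because it is so short, those few counts amounted to 4.40 TPM in replicate 2 and 8.57 TPM in replicate 1. The coding transcript Kcna4-201 had 17.9 TPM in replicate 2 and 15.9 in replicate 1, so its order was opposite to that of the gene total. In the second table Kcna4-202 had 2.27 counts in replicate 2 and was listed at 0 in replicate 1.

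Kcna6-201 and Kcna6-204 share a coding region of 1587 bases and differ by a few bases at their ends. The annotation names Kcna6-201 as a target of nonsense-mediated decay, a pathway that removes many RNAs with an early stop codon, and Kcna6-204 as protein coding. The coding region of Kcna6-201 is as complete as that of Kcna6-204. In both transcripts an untranslated exon follows the coding exon, so a splice junction lies after the stop codon. The first table gave Kcna6-201 32.9% in replicate 2 and 0.12% in replicate 1, whereas the second gave it 91.2% and 78.9%. Their sum was steadier, at 78.0% in replicate 2 and 76.3% in replicate 1, or 91.5% and 83.3% in the second table. The split between them could therefore not be read from these data. The antisense gene Gm26673 overlaps 2355 exonic bases of Kcna6 and had 4.34 TPM in replicate 2 and 3.78 in replicate 1; the sources used here do not say whether reads were counted by strand.

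The start of the coding region separates the beta subunits, and it is shown for the transcript of each gene that carries it, with the start codon in capitals. These 60 bases are in Kcnab1 at chr3:65109772-65109831 (mm10, plus strand) and in Kcnab2 at chr4:152435822-152435881 (minus strand).
Kcnab1: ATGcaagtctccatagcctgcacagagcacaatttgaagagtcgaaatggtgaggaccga
Kcnab2: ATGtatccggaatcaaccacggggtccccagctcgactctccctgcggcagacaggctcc

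The Kcnab1 sequence above belongs to Kcnab1-201, the only one of 6 annotated Kcnab1 transcripts with a complete coding region, which begins with the N-terminal inactivation peptide. Kcnab1-201 had 61.2 TPM in replicate 2 and 58.9 in replicate 1 in the first table, and 45.4 and 43.2 TPM in the second. Its share was 80.1% in replicate 2 and 85.6% in replicate 1, and 47.5% and 52.0% in the second table. The rest went almost wholly to Kcnab1-203, a noncoding transcript of 534 bases. Most of its exons are also exons of Kcnab1-201, so the split between these 2 rests on how shared reads were divided. Kcnab1-203 was assigned 105 counts in replicate 2 and 70.2 in replicate 1 in the first table, and 339 and 265 counts in the second. By the levels of transcripts with a complete coding region, Kcnab1 stood below Kcna2 and Kcna1 in both tables.

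Kcnab2 has 14 annotated transcripts, and 5 of them were at 10% or more. They differ in the first exon, at the 3′ end and in a coding exon of 42 bases at chr4:152434782-152434823 (minus strand). Kcnab2-208 has 668 bases in 9 exons and no complete coding region, and the last exon of Kcnab2-202 is 343 bases long. The 42-base exon is printed here in capitals with its neighbours and then without it, since transcripts at 10% or more include both forms.
Kcnab2 with exon: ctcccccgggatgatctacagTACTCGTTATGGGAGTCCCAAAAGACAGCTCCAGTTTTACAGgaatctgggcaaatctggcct
Kcnab2 without exon: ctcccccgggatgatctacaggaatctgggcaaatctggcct

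Among transcripts that span this junction, those with the exon held 57.7% in replicate 2 and 58.0% in replicate 1, and 55.4% and 53.5% in the second table. The second-table values rest in part on the short Kcnab2-208. It had 30.1 TPM there in replicate 2 and 38.2 in replicate 1, from 315 and 387 counts. By counts, not corrected for length, the second table gave transcripts with the exon 4874 in replicate 2 and 3731 in replicate 1. Those without it had 6996 and 6689, whereas in the first table counts were higher with the exon. Which form led was not settled. RNA of both kinds was present. The sum with the exon was 107 TPM in replicate 2 and 95.9 in replicate 1, against 78.1 and 69.5 TPM without it. In the second table it was 105 and 95.9 TPM, against 84.5 and 83.3 TPM. The sums with the exon include Kcnab2-208 and the noncoding Kcnab2-213, which lack a complete coding region. They are therefore not levels of a full Kvβ2 form. The choice of first exon was not settled. First exons were compared only among transcripts that span the junction above, as percent of the gene's TPM. Transcripts that do not span it were left out, even where they start at the same place. Those whose first exon lies farthest upstream, such as Kcnab2-201 and Kcnab2-207, held 77.8% in replicate 2 and 76.5% in replicate 1 in the first table. In the second table they held 21.1% and 17.8%. Kcnab2-205, which starts further downstream, held 3.61% in replicate 2 and 4.95% in replicate 1 in the first table, and 37.1% and 42.9% in the second. The animals were alike within each table, and the tables were far apart.

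Lgi1 RNA was assigned mostly to a transcript without the full coding region. The first exon of Lgi1 can end at chr19:38265097 (plus strand) or 9 bases downstream, and both junctions are printed here with the added bases in capitals, since this short addition keeps the reading frame but holds a stop codon.
Lgi1 upstream site: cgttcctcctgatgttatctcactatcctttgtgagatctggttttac
Lgi1 downstream site: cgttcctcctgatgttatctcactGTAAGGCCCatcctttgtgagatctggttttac

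The added bases bring in the stop codon TAA after 216 coding bases, and the annotation lists Lgi1-201, which has them, as a target of nonsense-mediated decay. Lgi1-201 had 39.3 TPM in replicate 2 and 40.6 in replicate 1, or 67.3% and 66.8% of the gene. In the second table it held 62.3% in replicate 2 and 59.5% in replicate 1. Lgi1-207, with the complete coding region of 1671 bases, is given because of that region, a choice made after its values were seen. It had 1.86 TPM in replicate 2 and 2.24 in replicate 1, or 3.19% and 3.70%. Lgi1-206, which has a different last exon and a shorter coding region of 873 bases, held 19.3% in replicate 2 and 20.0% in replicate 1. Lgi1-204, with 6 exons in place of 8, held 3.92% in replicate 2 and 4.08% in replicate 1, and 12.9% and 13.9% in the second table.

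Lgi1-201 and Lgi1-207 have 6 of 8 exons in common, and differ in the 9 bases and in both ends. Their last exons are 3319 bases in Lgi1-201 and 6595 bases in Lgi1-207, against 883 in Lgi1-204 and 408 in Lgi1-206. Reads over the last exon weigh on the share of Lgi1-201 together with reads over the 9 bases, and the tables do not separate them. The part of the RNA that uses the downstream site was not tested at the level of single reads.

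**Figure D2:**
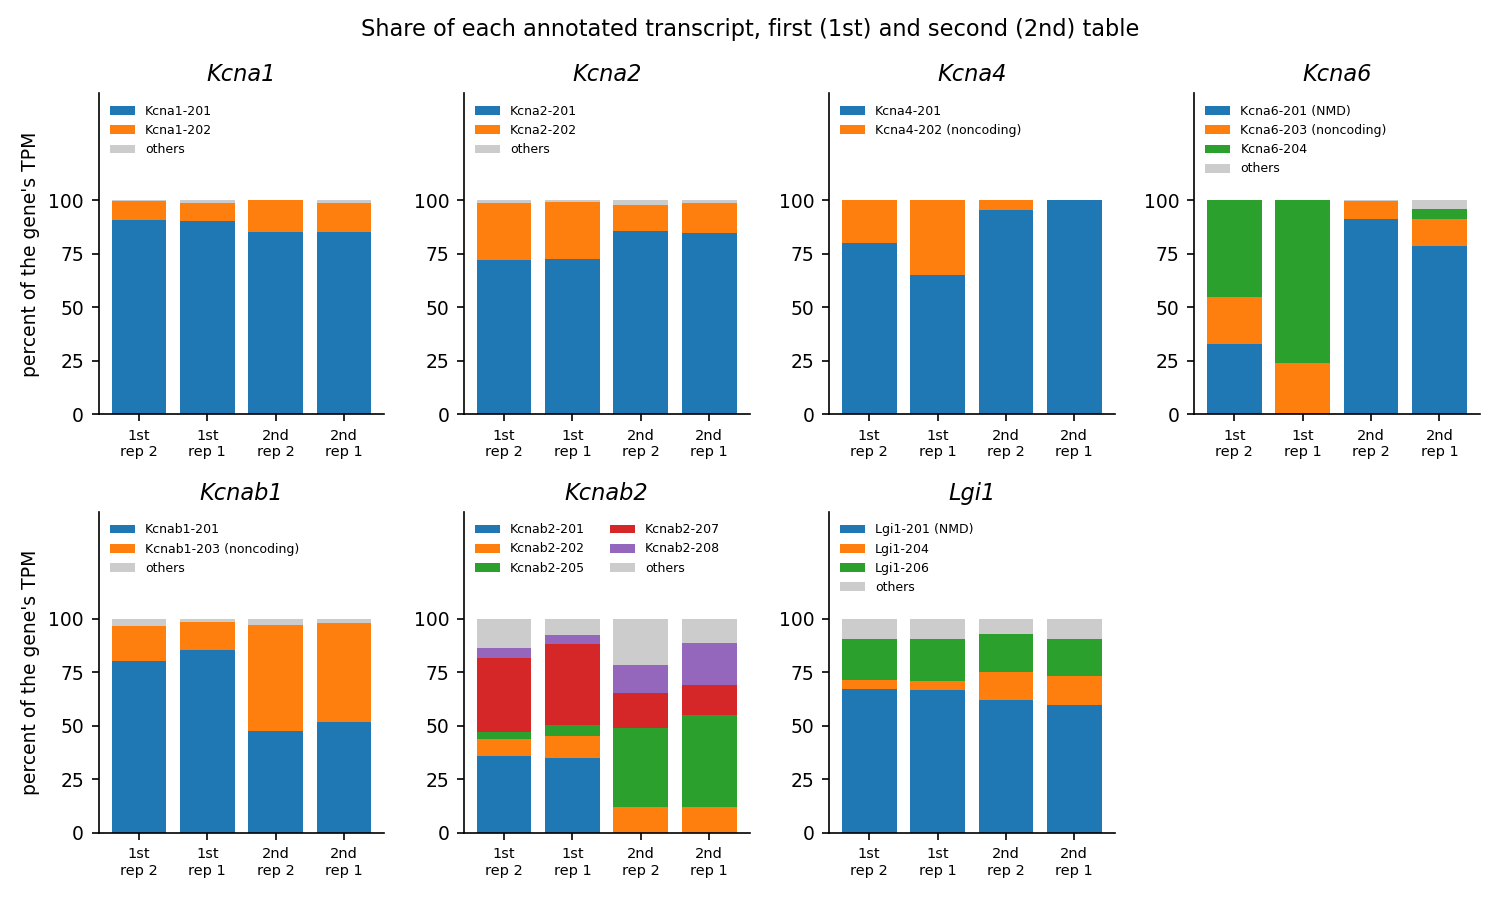
Share of each gene's TPM held by its annotated transcripts at 10% or more, for 7 genes, with bars for replicate 2 and replicate 1 in the first table (1st) and then in the second (2nd); NMD marks annotated targets of nonsense-mediated decay. The bars of the animals are alike within a table except for Kcna4 and Kcna6, and the tables differ most for Kcna6, Kcnab1 and Kcnab2.

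**Figure D3:**
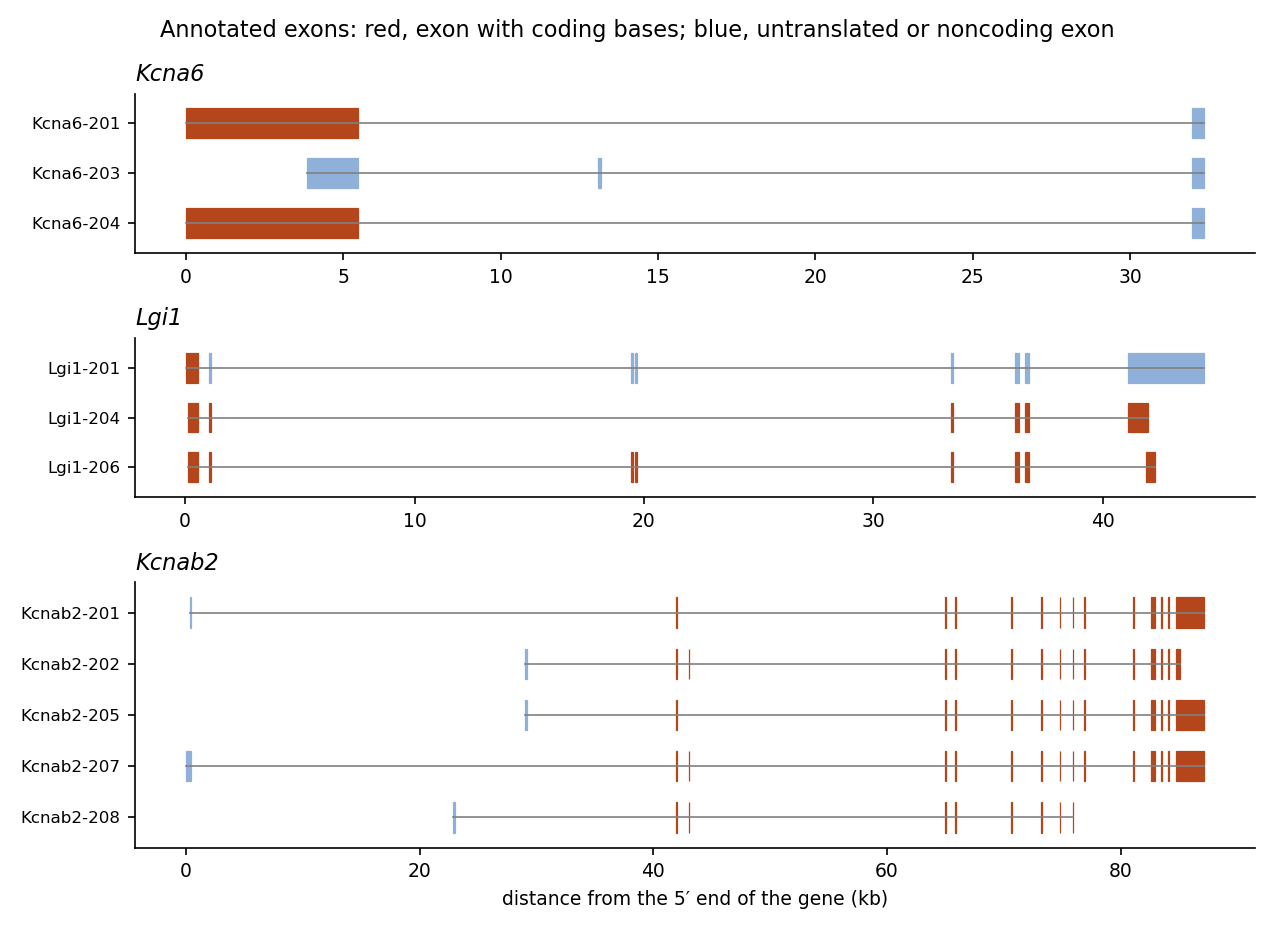
Exon maps of the transcripts of Kcna6, Lgi1 and Kcnab2 at 10% or more, drawn to scale as distance in kb from the 5′ end of the gene, with exons that hold coding bases in red and the others in blue. Lgi1-201 has coding bases in its first exon alone, Kcnab2 transcripts begin at 3 places, and Kcna6-201 and Kcna6-204 look the same at this scale.

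The animals differed little in these genes. Differences are given as log2 CPM (counts scaled by library size), replicate 2 minus replicate 1, scaled by the TMM method, with an SE that covers the counting of reads only, since there is 1 library for each animal. None of the 8 genes passed 2-fold, where 1.26% of the 14127 genes that averaged 50 or more counts did so. The median absolute difference of the 8 was 0.06, against 0.15 over all those genes. The 8 genes averaged at least 477.5 counts each, whereas all those genes include ones near 50 counts, where counting error is larger. No set of genes matched for counts was compared, so the 2 medians do not show that the 8 were steadier than other genes. The median of the signed differences was -0.0012 for the 8 genes and -0.02 for all genes. Kcnab1, Kcna2 and Kcna6 differed by 0.00, -0.01 and -0.01, each less than its counting SE.

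Small positive differences were seen for Kcna4 at 0.07 (SE 0.053), Kcna1 at 0.06 (SE 0.030) and Kcnab2 at 0.05 (SE 0.020). Their counts were 1610 in replicate 2 and 1395 in replicate 1 for Kcna4, 5061 and 4415 for Kcna1, and 10900 and 9573 for Kcnab2. Lgi1 was lower in replicate 2 by the same measure, at -0.13 (SE 0.032), with nearly equal counts of 4051 in replicate 2 and 4030 in replicate 1, and was 0.15 with the ERCC spike-ins as the scale. The sign of small differences depended on the scaling: 4 of the 8 genes were higher in replicate 2 with TMM, 5 with DESeq2 size factors, 6 with library totals and 7 with the ERCC spike-ins. Over all 14127 genes the shares that were higher were 45.6%, 47.1%, 54.1% and 88.1% under the same scalings, so a count of 7 under the spike-ins is near what all genes did. With the counts of the second table and TMM 4 of the 8 were higher, against 44.6% of all genes. Spike-in scaling put the median of all genes at 0.25, and the median of the 8 genes at 0.28.

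Kcna3 had the largest difference of the 8, at -0.35 (SE 0.094), which is 1.28-fold lower in replicate 2. That was larger in size than in 82.7% of all genes tested, and with the spike-ins it was -0.08. Of 6 microglial markers 4 were lower and 2 higher in replicate 2, from Tmem119 at -0.42 to Cx3cr1 at 0.05 (-0.14 and 0.32 with the spike-ins). Their median was -0.07, and their summed level was 130 TPM in replicate 2 and 133 TPM in replicate 1. Of 5 T cell markers 1 reached 1 TPM in both libraries, Cd4 at 5.28 TPM, and Cd3e was listed at 0. The 5 together summed to 7.37 TPM in replicate 2 and 4.76 TPM in replicate 1. The part that either cell type played in the Kcna3 difference was not tested. By TPM the deposited intervals of the animals did not overlap for 3 of the 8 genes, Kcna1, Kcnab2 and Kcna3, against 19.8% of all genes tested.

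**Figure D4:**
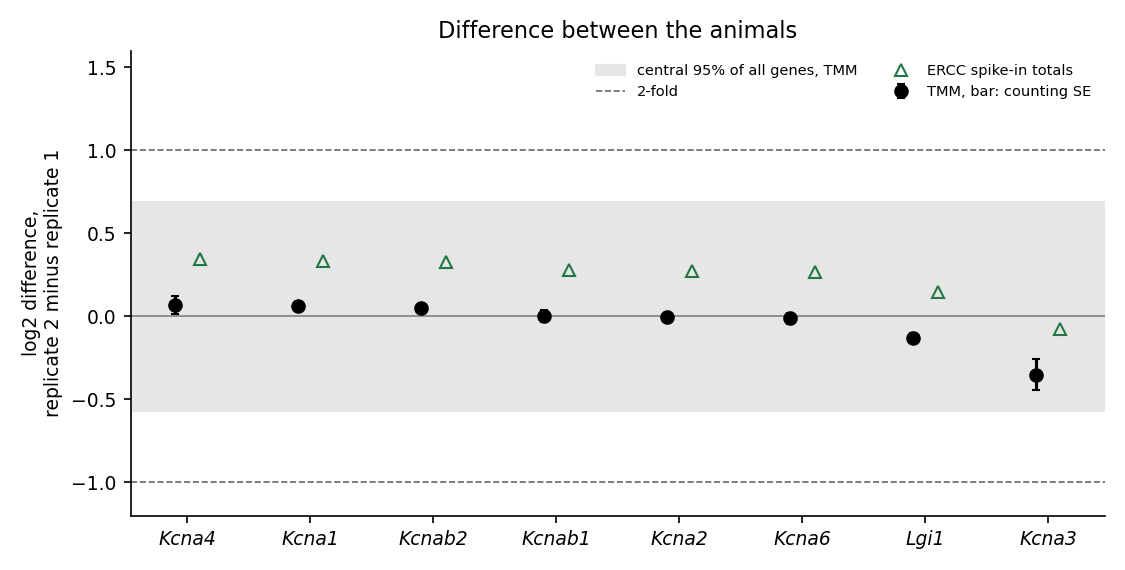
Log2 difference in CPM, replicate 2 minus replicate 1, for each gene with TMM scaling (filled circles, bars for 1 counting SE) and ERCC spike-in scaling (open triangles). The grey band holds the central 95% of all 14127 genes under TMM, from -0.57 to 0.69, and dashed lines mark 2-fold; the 8 genes all lie inside the band.

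Genes that act with the Kv1 channels were examined as lists. The receptor genes were expressed at levels like that of Lgi1, summed over all its transcripts, or higher. Adam22 had 99.9 TPM in replicate 2 and 96.7 in replicate 1, Adam23 had 85.0 and 66.6 TPM, and Adam11 had 59.5 and 51.6 TPM, the last below Lgi1 in replicate 1. Among the 4 Lgi genes, Lgi1 supplied 35.6% of the summed TPM in replicate 2 and 41.9% in replicate 1, and Lgi3 33.3% and 29.4%. In the list of other LGI genes and receptors 5 of 6 genes were higher in replicate 2, with a median difference of 0.20, and all 6 were higher with the spike-ins, where 45.6% of all genes were higher with TMM and 88.1% with the spike-ins. None passed 2-fold with TMM. The highest were Lgi3 at 0.31 (SE 0.043), Lgi2 at 0.31 (SE 0.035) and Adam23 at 0.27 (SE 0.025). Adam22, at -0.03, was the 1 gene of the list that was lower in replicate 2 with TMM.

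All 9 genes of the clustering and scaffold list were detected. Dlg4, which encodes the scaffold PSD-95 that binds the tail of Kv1 subunits, reached 395 ± 9.91 TPM (SD, n = 2), and its relative Dlg2, for PSD-93, 137 ± 4.57 TPM. Ank3, the ankyrin G that organises initial segments and nodes, had 241 ± 10.2 TPM. The juxtaparanodal pair Cntnap2, for CASPR2, and Cntn2, for contactin-2, had 57.6 ± 2.86 and 45.9 ± 1.06 TPM, below Kcna1 and Kcna2 in the first table. Cntnap1, for the paranodal CASPR, had 82.2 ± 6.69 TPM, and Nfasc, for neurofascin, 66.8 ± 1.36 TPM. Of the 9 genes 3 were higher and 6 lower in replicate 2 with TMM, and all 9 were higher with the spike-ins, beside 45.6% and 88.1% of all genes. The median with TMM was -0.08, with none past 2-fold.

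Kcnab3, the remaining beta subunit gene, had 40.0 TPM in replicate 2 and 34.4 in replicate 1, a level near that of Kcna6. Adarb1 encodes ADAR2, the enzyme that edits Kcna1 RNA in the coding region, and had 66.6 TPM in replicate 2 and 63.2 in replicate 1. Adar had 64.6 and 62.6 TPM. Editing itself was not analysed here.

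**Figure D5:**
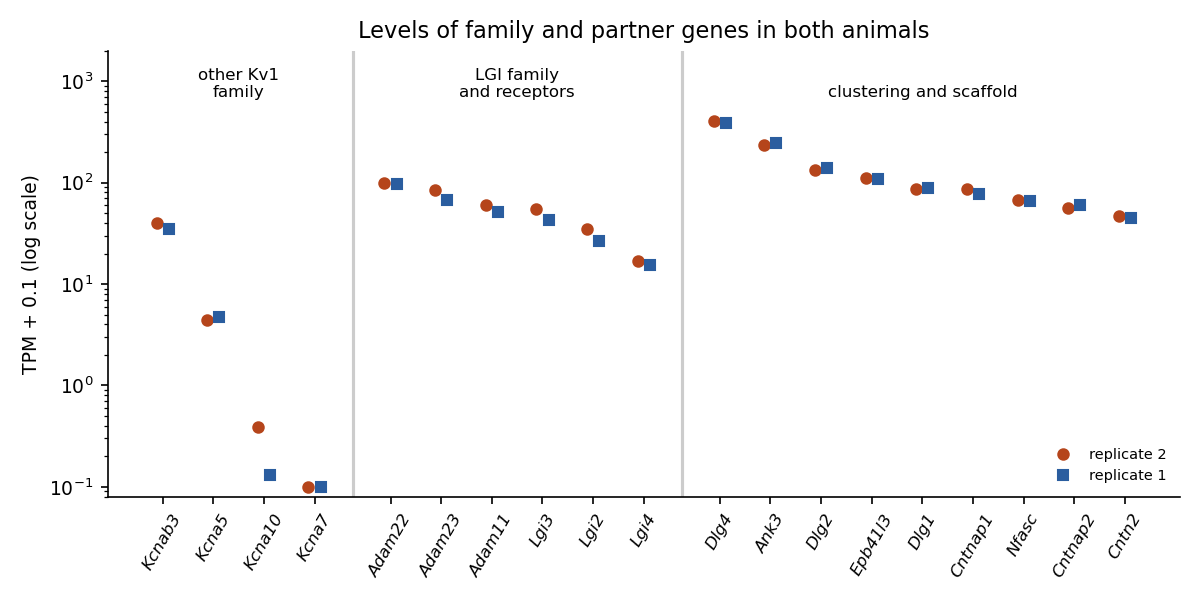
TPM plus 0.1 on a log axis for genes of the Kv1 family that are not among the 8, of the LGI family with its receptors, and of the clustering and scaffold list, with circles for replicate 2 and squares for replicate 1. Kcna10 and Kcna7 are at or near 0, the others lie between 4.47 and 395 TPM on average, and replicate 2 is visibly higher for Adam23, Lgi3 and Lgi2.

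The libraries held 30166261 gene counts in replicate 2 and 28252339 in replicate 1. Markers of excitatory neurons, inhibitory neurons, astrocytes and oligodendrocytes were all detected. All 6 markers of striatal projection neurons were detected too, with Ppp1r1b at 294 TPM, and the part of tissue beyond the cortex in the Kv1 levels was not tested. All 6 immediate early genes examined, which neurons switch on with activity, were lower in replicate 2 by more than 2-fold, with a median difference of -2.41. The 8 Kv1 and partner genes showed absolute differences of at most 0.35 beside that.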

How the data were processed

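Total RNA-seq libraries from 2 animals were analysed as 1 group. Build mm10 and GENCODE M21 are named in the deposited readme; the sources used here name neither the aligner nor the quantification tools. Per the file headers, the first gene and transcript tables, in the column layout that RSEM writes, hold expected counts, TPM, each transcript as a percent of its gene and interval bounds, deposited scores whose level is not stated. The second transcript table, in the layout that kallisto writes, holds the authors' estimated counts and TPM. TPM is scaled by the authors over all features. Hybrid reads were assigned to a reference, and parental alleles were not analysed here.

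Expected counts were rounded and turned into log2 CPM with edgeR 4.0.16 (R 4.3.3), TMM factors and a prior count of 1, for genes averaging 50 or more counts. The counting SE covers read sampling only, and reads carry no molecular identifiers. The steps were tested on simulated data. With 1 group of 2 animals no test between groups exists. Coding sequences were read from GENCODE M21 transcripts and aligned with Biopython 1.88. Named are the 8 genes, their transcripts at 10% of the gene's TPM or more, and the listed partner, family and marker genes. Lgi1-207, below 10%, was added after its values were seen. The genes and lists were chosen with earlier results of these data known. Other scalings (DESeq2 1.42.0, totals, ERCC), the second table and other filters were tried.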

Additional observations from a re-analysis of the deposited data

How the results depend on the processing

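No member passed 2-fold under TMM, DESeq2 size factors, library totals, ERCC spike-ins or the second table, and none passed 1.5-fold under TMM. The count filter removed none of the 8, so leaving it out could not change this. The other scalings shift all genes nearly alike. With differences of at most 0.35 under TMM they were therefore a weak check of the 2-fold limit. The mean log2 ratio of Kcna2 to Kcna1 turned round, at 0.14 in the first table and -0.15 in the second, and that of Kcna3 to Kcna4 did so in replicate 1, at -0.64 in the first table and 0.10 in the second. The second table also moved the log2 ratio of Kcnab2 over Kcnab1 to 1.24 in place of 1.35, and that of the beta sum over the alpha sum to 0.95 in place of 0.42. It moved inclusion of the 42-base exon of Kcnab2 to 54.5% in place of 57.9%. The share of Lgi1 annotated to nonsense-mediated decay moved to 60.9% in place of 67.0%. For Kcnab2 transcripts that span the junction and have the upstream first exon, the share moved to 19.5% in place of 77.1%. ERCC spike-ins moved the median difference of the 8 genes to 0.28 in place of -0.0012. The cause was not tested. TPM over protein-coding genes only was higher by a median factor of 2.05 in replicate 2 and 2.10 in replicate 1, and 6 of 8 levels were lower in the second table. Counting transcripts with a complete coding region only, an alternative chosen after seeing the data, put Kcna4 at 16.9 TPM and Kcnab1 at 60.1 TPM. It put Lgi1 at 56.0 TPM, since the short coding region of Lgi1-201 counted as complete. The Lgi1 transcripts annotated as protein coding had a mean of 16.1 TPM in the first table. Of 93 alternative values, those without 1 animal not counted, 45 stayed within the spread between the animals or the counting error. Some outcomes were fixed beforehand, such as TPM over protein-coding genes only, which rescales every level, and the count without the filter. The tally is therefore not a measure of how stable the results are. No paired analysis was possible because there is 1 group. Leaving out an animal gives the other animal's value, printed with each level, and no difference. With 2 animals the SD is itself poorly known, and Kcna3, Kcna10 and the short transcripts of Kcna4 and Kcnab1 rest on the fewest counts.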
